A study of Mus musculus with 20 samples.

Results

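Runx2 encodes a Runt-domain transcription factor that binds DNA together with CBFB and can switch genes on or off. It is best known as the master regulator of osteoblasts, while its relatives RUNX1 and RUNX3 have established roles in blood stem cells and in T cells. Haematopoietic progenitor cells (HPC) are early descendants of blood stem cells in the bone marrow, and they can still enter the myeloid, erythroid, megakaryocytic and lymphoid lineages.

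The comparison set HPC without an intact copy of Runx2 (Runx2 homozygous KO, here hom) against HPC with 1 altered copy (Runx2 heterozygous KO, here het), with Runx2 WT cells beside them. The members were the 6 libraries labelled hom and het, 3 of each, of 18 RNA libraries and 20 samples in the series, and the 3 WT HPC libraries gave the wild-type level. All were primary mouse bone marrow cells, described as cultured and as CD201- CD150- within the cKit+ Sca1+ Lineage- gate, from which polyadenylated RNA was sequenced. The knockout came from either a floxed allele or CRISPR editing, and the labels do not give which was used for which library, the Cre or guide, the age or strain of the mice, what the WT cells carried, or whether the 3 libraries of a genotype came from separate animals or cultures. What the p-values measure is thus the spread among these libraries, which may be technical. No batch or day of culture is given, so a genotype and anything its libraries shared in culture cannot be told apart.

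The hom libraries held 19060670 to 21058030 counts, the het libraries 16663497 to 20633138 and the WT libraries 21386411 to 22284511, and 13855 of the 49997 genes in the table had enough counts to be tested. Levels are given as CPM, the counts scaled to a common library size, after TMM normalisation, a scaling that evens out differences in library composition, and 3 counts in a library, the detection floor used here, corresponded to 0.135 to 0.180 CPM. Changes are log2 fold changes of hom over het from edgeR's quasi-likelihood test, fitted on the 9 HPC libraries, with standard errors (SE) and p-values adjusted over all 13855 genes by the Benjamini-Hochberg method. Each SE was derived from that test, as the size of the change divided by the square root of its F statistic. A gene was called where its adjusted p was under 0.05. Of the gate's own markers, Kit had 497, 456 and 499.9 CPM in hom, 561, 557 and 522 CPM in het and 380.4, 453 and 431 CPM in WT libraries. Procr, which encodes CD201 and should be low in a CD201- gate, was detected at 4.90, 7.13 and 4.48 CPM in hom, 7.20, 5.27 and 6.92 CPM in het and 4.77, 5.04 and 5.85 CPM in WT libraries. Ly6a, which encodes Sca1, was listed at 0 in all 9 libraries, as were Actg1 and Eef2, genes that every cell uses, so that no zero in the table was read as absence.

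In the first 2 principal components, which held 28.3% and 24.2% of the variance, the WT libraries stood apart on the first, at 22.3 to 24.9 against -23.0 to -8.0 for hom and -15.4 to -2.5 for het. The het libraries stood apart on the second, at 18.2 to 23.4, against -28.3 to -6.5 for hom and -8.4 to -1.4 for WT. Replicate 3 of hom lay farthest out, at -28.3. Results that rest on it are given with and without it.

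The deleted gene itself was checked in every library first. Runx2, which lies on the minus strand of chromosome 17 (44495987 to 44814797 in mm10), had 21.9, 20.9 and 23.0 CPM in hom, 98.7, 100.3 and 92.0 CPM in het and 112, 120.1 and 119 CPM in WT libraries. The groups did not overlap, and all 9 libraries stood in the order that their labels give, hom lowest and WT highest. The hom mean was 22.6% of the het mean and 18.7% of the WT mean, whereas the het mean was 82.7% of the WT mean. The change from het to hom was log2 fold change -2.14 ± 0.07, edgeR adjusted p = 3.91e-13, and it ranged from -2.18 to -2.11 over the alternative fits. The count covers all annotated exons, and the labels do not say which part of the gene was altered, so the remaining hom counts do not measure intact transcript.

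The sister genes of Runx2 and their shared partner were not called. Runx1, the family member that dominates in blood stem cells, averaged 281 ± 16.8 CPM in hom, 267 ± 10.5 CPM in het and 229.8 ± 8.90 CPM in WT, with a change of log2 fold change 0.07 ± 0.06, edgeR adjusted p = 0.5. Runx3 averaged 128 ± 15.9 CPM in hom, 134 ± 9.38 CPM in het and 153 ± 6.60 CPM in WT, log2 fold change -0.06 ± 0.08, edgeR adjusted p = 0.685, and its sign turned to 0.01 without hom replicate 3 (adjusted p = 0.958) and to 0.00 without het replicate 2 (adjusted p = 0.994). The annotation also places Runx3 on an alternative contig, which makes its level uncertain. Cbfb, the shared DNA-binding partner, averaged 229 ± 9.72 CPM in hom, 202 ± 8.93 CPM in het and 218 ± 12.3 CPM in WT. Its change of log2 fold change 0.19 ± 0.06, edgeR adjusted p = 0.0637 missed the threshold in edgeR, while the adjusted p from DESeq2 was 0.0362. Of 11 tested RUNX factors and partners, 2 were lower and 0 higher, where 1 was higher at an unadjusted p under 0.05 and 1 by DESeq2. The first lower one was Runx2, the altered gene itself, so its call was set by the genotype. The second lower one was Tle2, a Groucho-type corepressor that RUNX proteins can recruit, which had 7.72, 7.38 and 7.68 CPM in hom, 13.3, 11.6 and 11.4 CPM in het and 6.61, 8.45 and 7.91 CPM in WT libraries. Tle2 changed by -0.67 ± 0.12 on the log2 scale (SE, edgeR adjusted p = 0.00167). The libraries of het were the high ones for Tle2, with the hom and WT libraries overlapping.

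**Figure D1:**
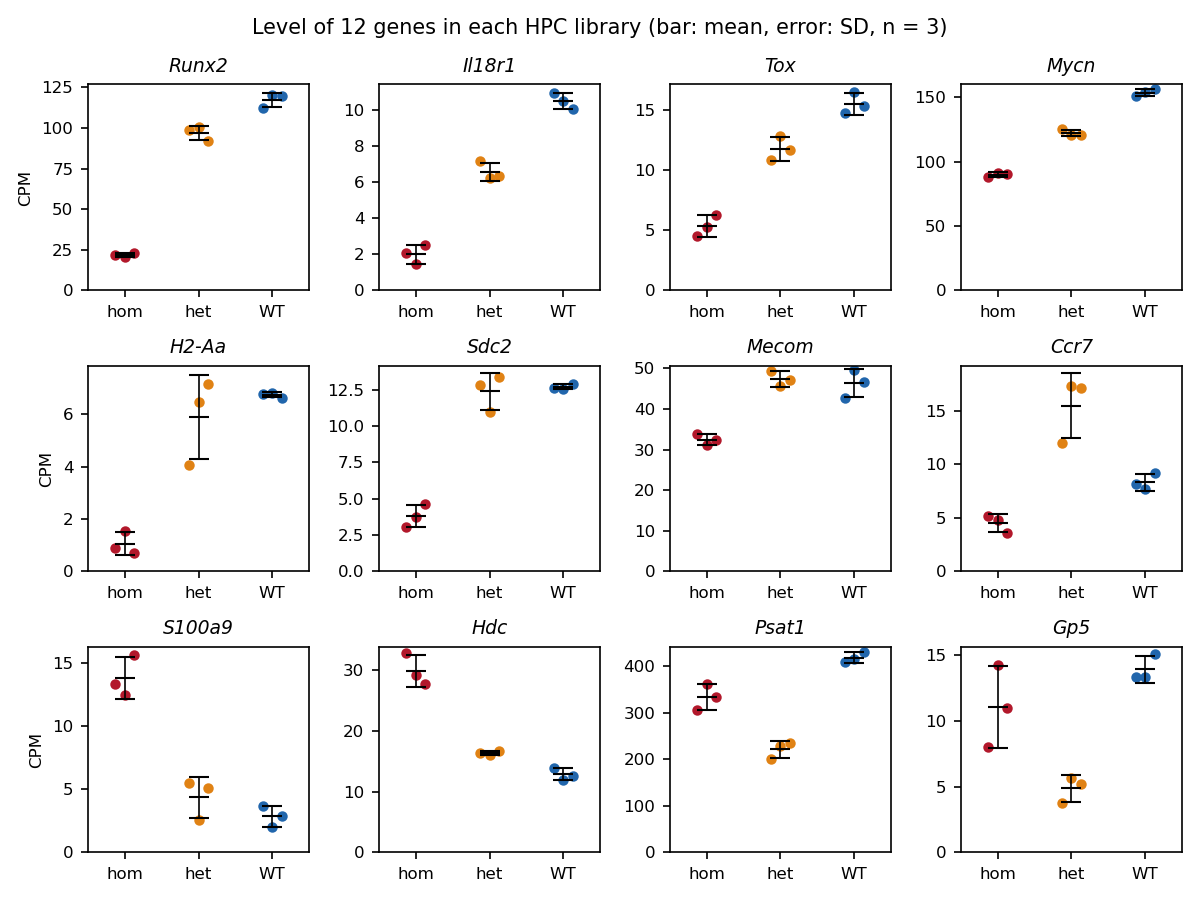
Level of 12 genes (vertical axes, CPM, each from 0) in each hom, het and WT library of HPC. Points are libraries, bars are means and error bars SD (n = 3 each). In the top row hom is lowest, het intermediate and WT highest, as for Runx2 at means of 21.9, 97.0 and 117 CPM. H2-Aa, Sdc2 and Mecom have het near WT, Ccr7 has het highest, S100a9 and Hdc have hom highest, and Psat1 and Gp5 have het lowest.

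Across the transcriptome 1303 of 13855 genes were called between hom and het (9.40%), of which 503 were higher in hom (3.63% of the genes tested) and 800 lower (5.77%). These shares are the ones to set beside the counts of each gene list described here. A count near them is not a result about that list. The 30 lists share members, with 719 distinct genes in 794 entries, so a call can count in more than 1 list. Most changes were small. The median size was 0.34 on the log2 scale among higher genes and 0.43 among lower genes, and 64 higher and 119 lower genes changed by at least 1. The 3 hom and the 3 het libraries did not overlap for 498 of the 503 higher genes and 794 of the 800 lower genes, where 27.5% of all genes tested had no overlap. The het mean lay above the hom and WT means in 698 of the 800 lower genes. It lay below both in 416 of the 503 higher genes. Calling genes on hom against het favours this place of het. An extreme het level is therefore not particular to the genes or lists described here. The count of calls rested partly on single libraries, since it fell to 797 without hom replicate 3 and to 701 without het replicate 2.

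**Figure D2:**
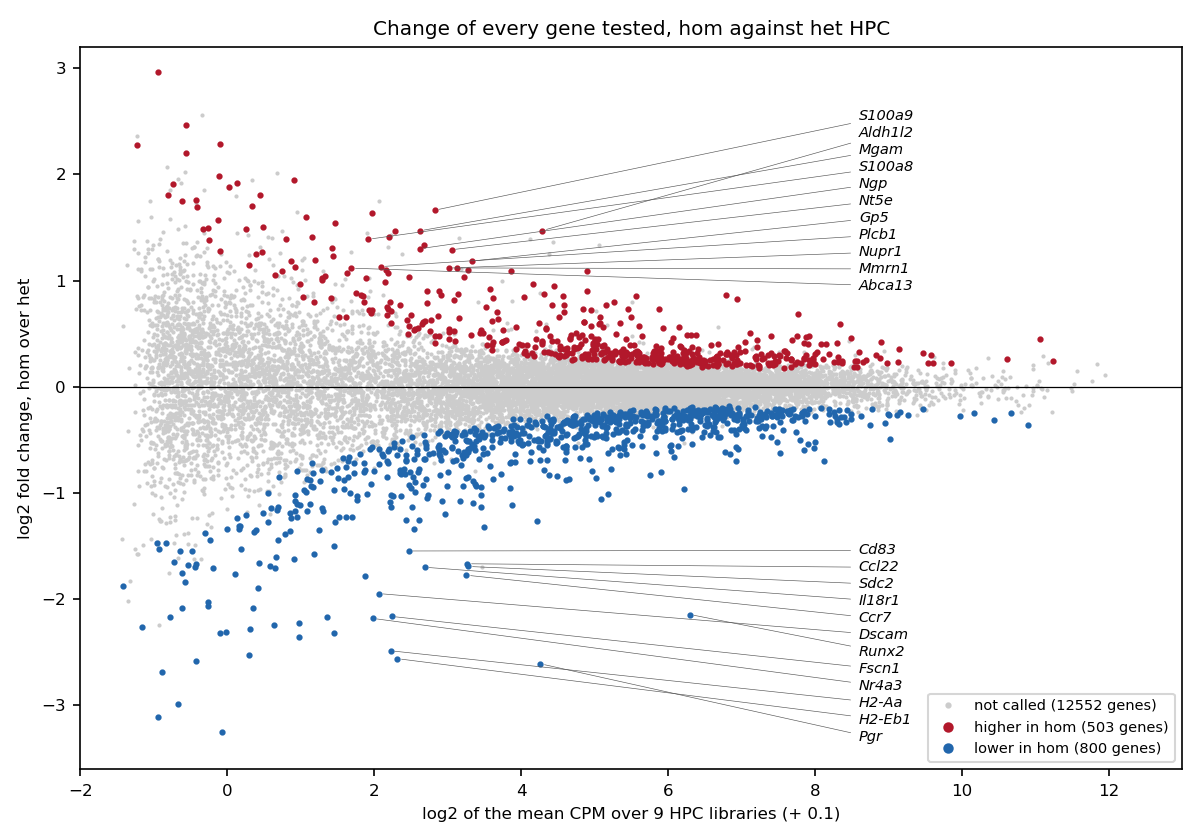
Change of each of 13855 genes between hom and het HPC (vertical axis, log2 fold change) against its mean level over the 9 HPC libraries (horizontal axis, log2 of CPM plus 0.1). Red points are the 503 genes called higher in hom, blue points the 800 called lower and grey points the rest; 1 uncharacterised gene with 0 counts in hom falls below the plotted range. Marked are 11 higher and 12 lower genes, from S100a9 at 1.66 to Pgr at -2.61. They are from the largest changes among called genes with no overlap and a mean of at least 5 CPM in the higher group.

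The lower genes with the largest changes, given no overlap of hom and het and a mean of at least 5 CPM in het, fell into a few kinds. Pgr, the progesterone receptor, had 7.03, 3.93 and 6.74 CPM in hom, 45.9, 32.2 and 29.9 CPM in het and 16.5, 16.4 and 13.4 CPM in WT libraries. Pgr changed by -2.61 ± 0.22 on the log2 scale (SE, edgeR adjusted p = 9.24e-05). The hom libraries were lowest and the het libraries highest, with WT between them and no overlap. The genes for the MHC class II chains H2-Eb1 and H2-Aa, which present antigen to CD4 T cells, followed, and both are described with the dendritic cell genes. Il18r1, which encodes a receptor chain for interleukin-18, had 2.08, 1.46 and 2.50 CPM in hom, 7.14, 6.20 and 6.33 CPM in het and 10.9, 10.5 and 10.0 CPM in WT libraries. Il18r1 changed by -1.70 ± 0.17 on the log2 scale (SE, edgeR adjusted p = 1.93e-05). For Il18r1 the 3 genotypes stood in the order of their Runx2 levels with no overlap.

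Adhesion and surface genes were among the lower genes too. Sdc2, which encodes the heparan sulphate proteoglycan syndecan 2, had 3.09, 3.74 and 4.62 CPM in hom, 12.8, 10.97 and 13.3 CPM in het and 12.6, 12.6 and 12.9 CPM in WT libraries. Sdc2 changed by -1.69 ± 0.14 on the log2 scale (SE, edgeR adjusted p = 2.10e-06). All hom libraries lay below all het and WT libraries. Dscam, a cell adhesion molecule best known from neurons, had 1.49, 1.55 and 0.895 CPM in hom, 4.56, 5.32 and 5.26 CPM in het and 5.23, 5.74 and 6.73 CPM in WT libraries. Dscam changed by -1.95 ± 0.21 on the log2 scale (SE, edgeR adjusted p = 2.59e-05). Its het and WT libraries overlapped, and because the annotation also places Dscam on an alternative contig its level is uncertain. Nr4a3, an orphan nuclear receptor of the immediate early response, averaged 1.43 ± 0.481 CPM in hom, 6.58 ± 0.425 CPM in het and 3.55 ± 0.571 CPM in WT (log2 fold change -2.18 ± 0.22, edgeR adjusted p = 1.61e-05).

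**Figure D3:**
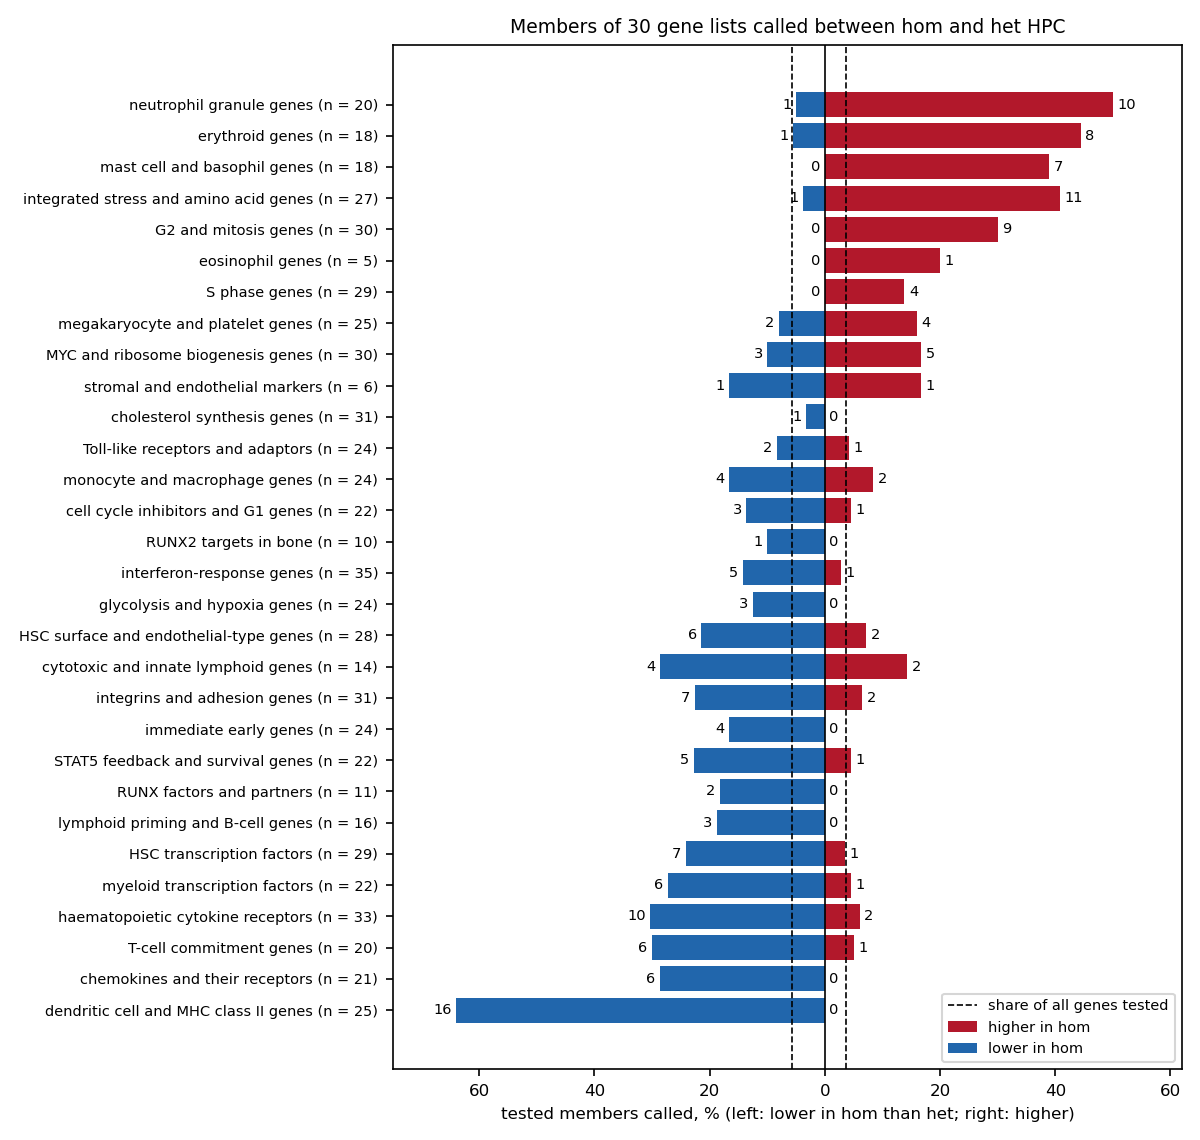
Share of the tested members of 30 gene lists that were called between hom and het HPC (horizontal axis, %, lower in hom to the left and higher in hom to the right). Figures beside the bars are numbers of genes, n is the number of members tested and dashed lines are the shares among all genes tested, 3.63% higher and 5.77% lower. Neutrophil granule genes reach furthest to the right with 10 of 20, and dendritic cell and MHC class II genes furthest to the left with 16 of 25. The lower RUNX factors and partners include Runx2 itself.

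Of 25 tested dendritic cell and MHC class II genes 16 were lower and 0 higher, with 0 higher also at an unadjusted p under 0.05 and by DESeq2. Their median change was -0.70, against 0.00 over all genes tested, and 12 to 15 were lower when any 1 hom or het library was left out. H2-Aa, the alpha chain of the I-A molecule, had 0.905, 1.55 and 0.707 CPM in hom, 4.08, 6.47 and 7.16 CPM in het and 6.79, 6.82 and 6.64 CPM in WT libraries. H2-Aa changed by -2.49 ± 0.26 on the log2 scale (SE, edgeR adjusted p = 1.98e-05). H2-Eb1, the beta chain of I-E, had 0.532, 1.89 and 0.848 CPM in hom, 4.80, 7.24 and 7.45 CPM in het and 6.20, 7.56 and 7.38 CPM in WT libraries. H2-Eb1 changed by -2.56 ± 0.30 on the log2 scale (SE, edgeR adjusted p = 1.13e-04). For both, every hom library lay below every het and WT library, and het and WT overlapped. The annotation also places H2-Aa, H2-Eb1 and H2-Ob on alternative contigs, which makes their levels uncertain. H2-Ab1, the partner chain of H2-Aa, was not called (16.9 ± 2.82 CPM in hom, 22.2 ± 4.29 CPM in het and 16.5 ± 1.47 CPM in WT; log2 fold change -0.40 ± 0.14, edgeR adjusted p = 0.0775).

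Genes for the loading of class II molecules were among the lower members. Cd74, the invariant chain, averaged 16.0 ± 3.95 CPM in hom, 29.2 ± 6.42 CPM in het and 28.1 ± 0.563 CPM in WT, a change of -0.87 ± 0.19 (log2, SE; edgeR adjusted p = 0.0187). Ciita, the class II transactivator, averaged 1.25 ± 0.524 CPM in hom, 2.42 ± 0.304 CPM in het and 2.64 ± 0.514 CPM in WT, a change of -0.93 ± 0.29 (log2, SE; edgeR adjusted p = 0.0494). The peptide exchange factors H2-DMa, H2-DMb1 and H2-DMb2 were lower, with changes of -0.36, -0.32 and -0.79 on the log2 scale (edgeR adjusted p = 0.00417, 0.0377 and 0.0105). With a library left out, Cd74 was not called without het replicate 2 or 3 (adjusted p = 0.0704 and 0.063), Ciita was called only without hom replicate 3 and H2-DMb1 only without het replicate 3. H2-Ob, which restrains peptide exchange, had 118, 96.5 and 111 CPM in hom, 184, 173 and 171 CPM in het and 73.2, 88.8 and 79.1 CPM in WT libraries. H2-Ob changed by -0.70 ± 0.08 on the log2 scale (SE, edgeR adjusted p = 3.15e-05). Het was highest in H2-Ob, and hom lay between het and WT.

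A second set of lower genes marks mature, migrating dendritic cells. Ccr7, the chemokine receptor that guides them to lymph nodes, had 5.22, 4.80 and 3.63 CPM in hom, 11.99, 17.3 and 17.1 CPM in het and 8.17, 7.66 and 9.22 CPM in WT libraries. Ccr7 changed by -1.77 ± 0.16 on the log2 scale (SE, edgeR adjusted p = 3.91e-06). Fscn1, the actin-bundling protein fascin, averaged 1.72 ± 0.818 CPM in hom, 7.63 ± 2.22 CPM in het and 4.51 ± 0.643 CPM in WT, a change of -2.16 ± 0.30 (log2, SE; edgeR adjusted p = 4.85e-04). Ccl22, a chemokine, averaged 4.80 ± 0.692 CPM in hom, 15.2 ± 4.17 CPM in het and 8.65 ± 1.80 CPM in WT, a change of -1.67 ± 0.21 (log2, SE; edgeR adjusted p = 2.94e-04). The maturation marker Cd83 averaged 2.84 ± 0.176 CPM in hom, 8.31 ± 2.07 CPM in het and 5.15 ± 0.922 CPM in WT, a change of -1.55 ± 0.19 (log2, SE; edgeR adjusted p = 6.63e-05). In these 4 genes every het library exceeded every hom and every WT library. Itgax, the integrin CD11c, averaged 3.25 ± 0.510 CPM in hom, 6.63 ± 0.863 CPM in het and 5.26 ± 0.700 CPM in WT, a change of -1.02 ± 0.17 (log2, SE; edgeR adjusted p = 9.12e-04). Zbtb46, Clec9a and Bst2 were not called, with changes of -0.08, -0.45 and 0.04, and Batf3 and Xcr1 were too low to test. The summed level of the 25 genes was 930 to 1038 CPM in hom, 1258 to 1327 CPM in het and 848 to 945 CPM in WT libraries. In bulk RNA fewer cells of a type and less RNA per cell cannot be told apart, which holds for each marker list described here.

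Of 20 tested T-cell commitment genes 6 were lower and 1 higher, with a median change of -0.36. Between 4 and 6 were lower with 1 hom or het library left out, the 4 being without hom replicate 3. Tox, a factor of early T-cell and innate lymphoid development, had 4.52, 5.24 and 6.31 CPM in hom, 10.9, 12.8 and 11.7 CPM in het and 14.7, 16.5 and 15.3 CPM in WT libraries. Tox changed by -1.13 ± 0.13 on the log2 scale (SE, edgeR adjusted p = 3.15e-05). Tcf7, which encodes TCF1, the factor that installs the T-cell programme, had 2.98, 3.93 and 2.03 CPM in hom, 6.06, 7.68 and 7.55 CPM in het and 8.35, 7.75 and 7.69 CPM in WT libraries. Tcf7 changed by -1.26 ± 0.19 on the log2 scale (SE, edgeR adjusted p = 3.62e-04). Tox was graded over the 3 genotypes, and Tcf7 was low in hom only, with the highest het library at 7.68 CPM next to the lowest WT library at 7.69 CPM.

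Further T-lineage members were called. Cd7, an early T and NK surface protein, averaged 0.599 ± 0.288 CPM in hom, 2.86 ± 0.430 CPM in het and 2.13 ± 0.640 CPM in WT (log2 fold change -2.23 ± 0.34, edgeR adjusted p = 3.71e-04), although 13% of its exon length is shared with a neighbouring gene. Trat1, an adaptor of the T-cell receptor complex, averaged 5.04 ± 0.836 CPM in hom, 10.6 ± 0.645 CPM in het and 6.72 ± 0.767 CPM in WT, a change of -1.08 ± 0.14 (log2, SE; edgeR adjusted p = 1.16e-04). Il2ra and Ets1 were lower, with changes of -0.72 and -0.37 on the log2 scale (edgeR adjusted p = 0.0388 and 0.0374). Lat, an adaptor also used by platelets and mast cells, was higher, at 28.2 ± 5.92 CPM in hom, 20.3 ± 2.47 CPM in het and 34.4 ± 2.91 CPM in WT, a change of 0.47 ± 0.13 (log2, SE; edgeR adjusted p = 0.0399). With a hom or het library left out, Il2ra was called only without hom replicate 1, Ets1 only without het replicate 1, and Lat only without hom replicate 1 or het replicate 3. Gata3, Notch1 and Thy1 were not called (changes of -0.44, -0.43 and -0.42), and 13 members of the list, among them Cd3e, Bcl11b and Rag1, were too low to test.

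Among 16 tested lymphoid priming and B-cell genes 3 were lower and 0 higher, where 3 were higher at an unadjusted p under 0.05 and 0 by DESeq2. Flt3, the cytokine receptor of multipotent and lymphoid-primed progenitors, had 273, 236 and 227 CPM in hom, 349.9, 362 and 342 CPM in het and 159, 201 and 165 CPM in WT libraries. Flt3 changed by -0.52 ± 0.08 on the log2 scale (SE, edgeR adjusted p = 7.67e-04). Dntt, the terminal transferase that adds bases to antigen receptor genes, had 18.3, 18.1 and 15.7 CPM in hom, 27.0, 28.5 and 28.8 CPM in het and 4.86, 7.52 and 6.33 CPM in WT libraries. Dntt changed by -0.70 ± 0.11 on the log2 scale (SE, edgeR adjusted p = 5.22e-04). Satb1, a chromatin organiser of lymphoid progenitors, averaged 109.5 ± 5.23 CPM in hom, 164 ± 8.92 CPM in het and 97.9 ± 12.6 CPM in WT, a change of -0.58 ± 0.08 (log2, SE; edgeR adjusted p = 1.26e-04). For all 3 the het libraries were the highest, and the hom mean exceeded the WT mean. The interleukin-7 receptor gene Il7r was not called (log2 fold change -0.44 ± 0.16, edgeR adjusted p = 0.0933).

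Of 14 tested cytotoxic and innate lymphoid genes 4 were lower and 2 higher, and 1 was higher without hom replicate 3 or het replicate 3. Klrd1, which encodes the NK receptor CD94, had 5.32, 4.80 and 4.15 CPM in hom, 11.4, 9.38 and 11.9 CPM in het and 7.53, 7.94 and 6.86 CPM in WT libraries. Klrd1 changed by -1.20 ± 0.14 on the log2 scale (SE, edgeR adjusted p = 3.59e-05). Il18rap, the second chain of the interleukin-18 receptor, averaged 84.6 ± 4.32 CPM in hom, 106 ± 2.36 CPM in het and 108 ± 1.84 CPM in WT, a change of -0.33 ± 0.06 (log2, SE; edgeR adjusted p = 0.00127). Both receptor chains were lower in hom, with log2 fold changes of -1.70 for Il18r1 and -0.33 for Il18rap. Gzmb, the protease granzyme B, was not called between hom and het, at 73.4 ± 6.87 CPM in hom, 83.6 ± 10.3 CPM in het and 165 ± 9.20 CPM in WT (log2 fold change -0.19 ± 0.09, edgeR adjusted p = 0.193).

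Of 20 tested neutrophil granule genes 10 were higher and 1 lower, with a median change of 0.37, and 7 to 11 were higher with 1 hom or het library left out. S100a9, a subunit of calprotectin, an antimicrobial protein of neutrophils, had 13.3, 12.4 and 15.6 CPM in hom, 5.46, 2.52 and 5.07 CPM in het and 3.67, 2.01 and 2.88 CPM in WT libraries. S100a9 changed by 1.66 ± 0.23 on the log2 scale (SE, edgeR adjusted p = 4.85e-04). S100a8, the other subunit, had 6.71, 6.11 and 7.30 CPM in hom, 3.30, 1.15 and 3.22 CPM in het and 2.34, 1.49 and 1.53 CPM in WT libraries. S100a8 changed by 1.39 ± 0.27 on the log2 scale (SE, edgeR adjusted p = 0.00434). In both genes every hom library exceeded every het and WT library, and het and WT overlapped.

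The granule proteases and their regulators followed in smaller steps. Ctsg, which encodes cathepsin G, had 310.1, 306 and 300.2 CPM in hom, 222, 229 and 212 CPM in het and 185, 185 and 169 CPM in WT libraries. Ctsg changed by 0.47 ± 0.06 on the log2 scale (SE, edgeR adjusted p = 7.40e-05). Elane, the neutrophil elastase gene, averaged 91.0 ± 8.75 CPM in hom, 55.0 ± 11.9 CPM in het and 30.5 ± 4.23 CPM in WT, a change of 0.73 ± 0.15 (log2, SE; edgeR adjusted p = 0.0128). Cebpe, the factor that drives late granule genes, had 9.53, 8.06 and 11.7 CPM in hom, 5.82, 5.76 and 5.41 CPM in het and 3.49, 4.86 and 4.02 CPM in WT libraries. Cebpe changed by 0.79 ± 0.16 on the log2 scale (SE, edgeR adjusted p = 0.0037). Hp, which encodes the haemoglobin-binding protein haptoglobin, averaged 45.5 ± 10.2 CPM in hom, 24.4 ± 1.12 CPM in het and 19.4 ± 2.52 CPM in WT, a change of 0.90 ± 0.14 (log2, SE; edgeR adjusted p = 0.00124). Ms4a3, a marker of granulocyte and monocyte progenitors, averaged 43.2 ± 0.626 CPM in hom, 27.4 ± 1.78 CPM in het and 30.5 ± 5.91 CPM in WT, a change of 0.66 ± 0.10 (log2, SE; edgeR adjusted p = 6.29e-04). Mpo, the myeloperoxidase gene, averaged 1898 ± 48.5 CPM in hom, 1579 ± 197 CPM in het and 1214 ± 35.8 CPM in WT (log2 fold change 0.27 ± 0.08, edgeR adjusted p = 0.0388), with a level made uncertain by an alternative contig. Elane was not called without hom replicate 3 (adjusted p = 0.0619), and with a library left out Mpo was called only without het replicate 2. The lower member was Padi4, a histone-modifying enzyme (113 ± 14.02 CPM in hom, 148 ± 6.54 CPM in het and 114 ± 7.23 CPM in WT; log2 fold change -0.39 ± 0.08, edgeR adjusted p = 0.00331).

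Late neutrophil genes were low in all 3 genotypes. Ngp, a secondary granule protein, averaged 10.5 ± 2.50 CPM in hom, 4.28 ± 2.04 CPM in het and 3.37 ± 1.45 CPM in WT (log2 fold change 1.30 ± 0.35, edgeR adjusted p = 0.0469), but its call was lost without hom replicate 1 or 3 or het replicate 2 or 3, at adjusted p-values up to 0.148. Camp averaged 0.418 CPM in hom, 0.358 CPM in het and 0.411 CPM in WT libraries, and Ltf, Gfi1 and Csf3r were not called (changes of 0.70, 0.24 and 0.07). Lcn2, Ly6g and Mmp9 were too low to test. Mgam, an intestinal glucosidase gene that neutrophils also express in humans, averaged 11.6 ± 1.92 CPM in hom, 4.22 ± 1.10 CPM in het and 2.37 ± 0.415 CPM in WT, a change of 1.47 ± 0.18 (log2, SE; edgeR adjusted p = 7.40e-05). Abca13, a lipid transporter gene, averaged 5.20 ± 1.66 CPM in hom, 2.42 ± 0.564 CPM in het and 1.75 ± 0.434 CPM in WT (log2 fold change 1.12 ± 0.25, edgeR adjusted p = 0.00904), and its call was lost without hom replicate 3 (adjusted p = 0.0527).

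Of 18 tested mast cell and basophil genes 7 were higher and 0 lower, where 3 were lower at an unadjusted p under 0.05, 0 by DESeq2 and 1 without het replicate 1. The median change was 0.31, and 5 to 7 were higher with 1 hom or het library left out. Hdc, which encodes the enzyme that makes histamine, had 32.8, 29.3 and 27.7 CPM in hom, 16.4, 16.0 and 16.7 CPM in het and 13.9, 11.95 and 12.6 CPM in WT libraries. Hdc changed by 0.87 ± 0.09 on the log2 scale (SE, edgeR adjusted p = 1.98e-05). Il1rl1, the interleukin-33 receptor ST2, had 45.4, 52.6 and 58.2 CPM in hom, 28.6, 29.3 and 31.6 CPM in het and 34.9, 31.6 and 34.2 CPM in WT libraries. Il1rl1 changed by 0.80 ± 0.09 on the log2 scale (SE, edgeR adjusted p = 2.56e-05). Hom was highest in both, without overlap. Cpa3, a mast cell carboxypeptidase, averaged 95.4 ± 8.94 CPM in hom, 64.6 ± 4.90 CPM in het and 53.2 ± 6.01 CPM in WT, a change of 0.56 ± 0.08 (log2, SE; edgeR adjusted p = 4.19e-04). Ms4a2, the beta chain of the IgE receptor, averaged 38.7 ± 4.34 CPM in hom, 25.4 ± 0.508 CPM in het and 22.2 ± 0.501 CPM in WT, a change of 0.61 ± 0.08 (log2, SE; edgeR adjusted p = 1.52e-04). Alox5, which starts leukotriene synthesis, was higher at 26.5 ± 5.41 CPM in hom, 13.7 ± 1.83 CPM in het and 24.8 ± 2.34 CPM in WT, a change of 0.95 ± 0.14 (log2, SE; edgeR adjusted p = 4.71e-04). Kit, Gata2 and Fcer1g were not called (changes of -0.17, 0.07 and 0.13). The chymase and tryptase genes Cma1, Tpsb2 and Tpsab1 were too low to test. Among 5 eosinophil genes Il5ra, the interleukin-5 receptor chain, was higher at 4.38 ± 0.528 CPM in hom, 1.86 ± 0.0956 CPM in het and 1.56 ± 0.0386 CPM in WT (log2 fold change 1.23 ± 0.20, edgeR adjusted p = 7.26e-04).

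Monocyte and macrophage genes changed in both directions. Of 24 tested 2 were higher (8.33%, against 3.63% of all genes) and 4 lower (16.7%, against 5.77%). Their median change was -0.06. F13a1, a coagulation factor subunit of monocytes, averaged 52.0 ± 3.25 CPM in hom, 35.3 ± 3.64 CPM in het and 16.4 ± 0.950 CPM in WT, a change of 0.56 ± 0.08 (log2, SE; edgeR adjusted p = 2.91e-04). Ly6c2 averaged 15.1 ± 1.17 CPM in hom, 9.63 ± 1.38 CPM in het and 1.62 ± 0.264 CPM in WT, a change of 0.65 ± 0.13 (log2, SE; edgeR adjusted p = 0.00303). Close paralogues make the count of Ly6c2 uncertain. Cd68, a lysosomal protein of macrophages, averaged 39.2 ± 2.73 CPM in hom, 57.3 ± 3.68 CPM in het and 39.5 ± 2.46 CPM in WT, a change of -0.55 ± 0.08 (log2, SE; edgeR adjusted p = 1.60e-04). The chemokine Ccl9 averaged 496 ± 55.4 CPM in hom, 697 ± 22.7 CPM in het and 365 ± 25.3 CPM in WT, a change of -0.49 ± 0.08 (log2, SE; edgeR adjusted p = 4.71e-04). Csf1r, the macrophage growth factor receptor, averaged 100.1 CPM in hom, 103 CPM in het and 53.6 CPM in WT libraries, with a change of -0.04 between hom and het. The summed level of the 24 genes was 2804 to 3042 CPM in hom, 3108 to 3144 CPM in het and 1755 to 1925 CPM in WT libraries. Thus both mutant groups lay above WT without overlap. Without hom replicate 3, the higher members numbered 4.

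**Figure D4:**
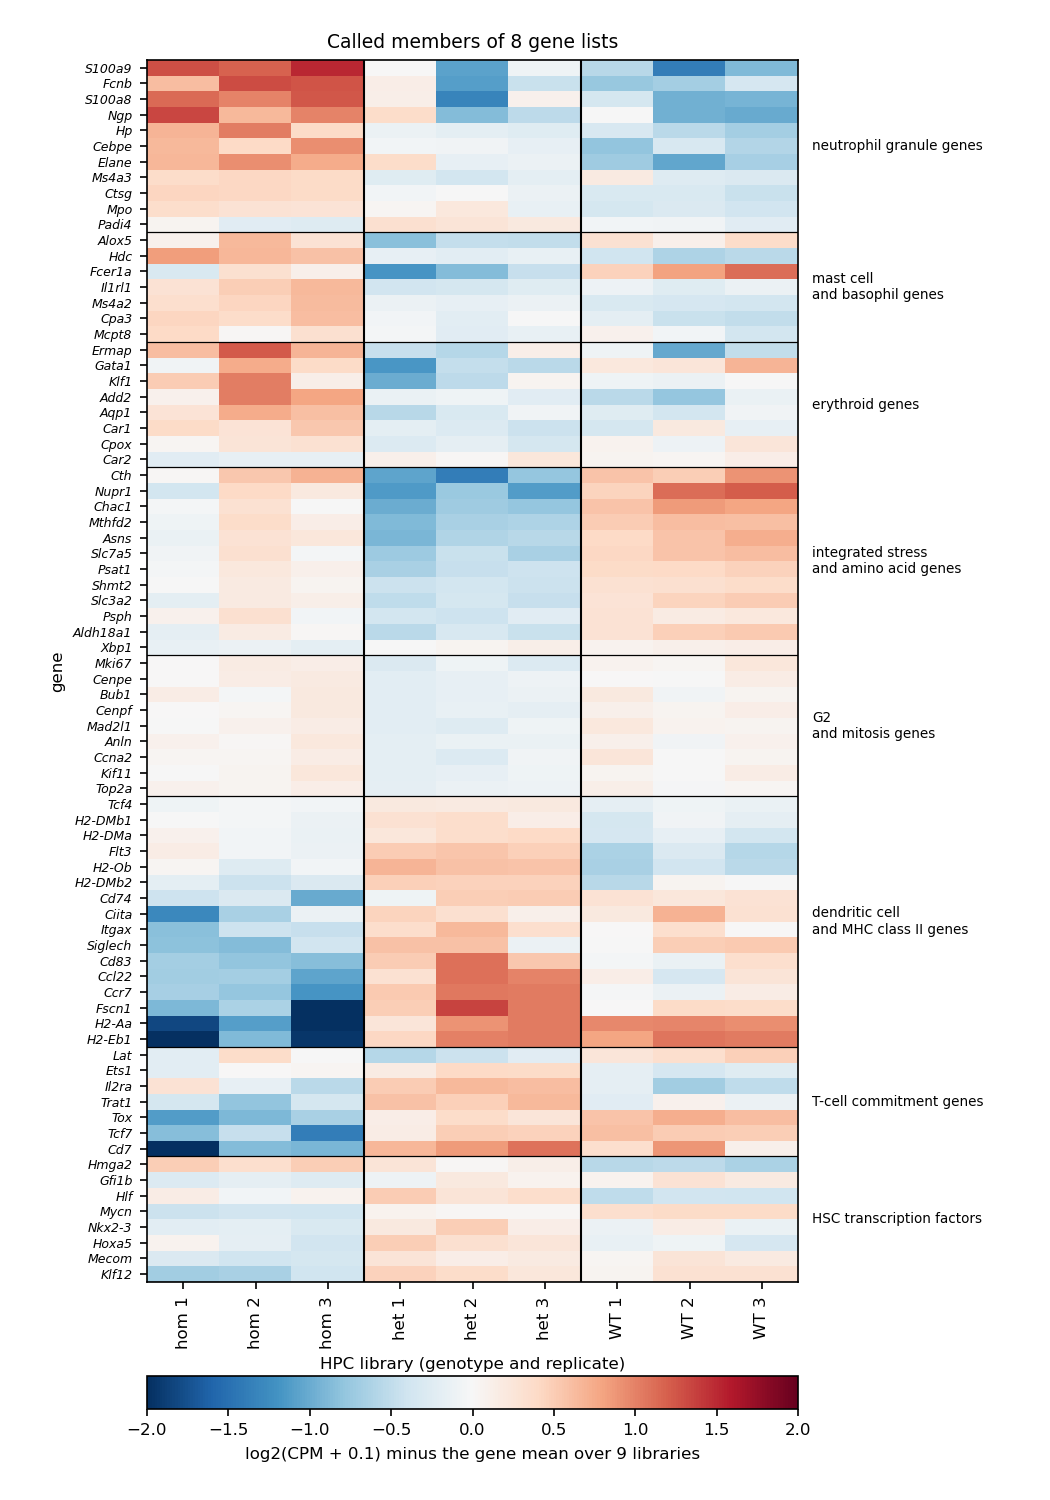
Level of 78 called members of 8 gene lists in each HPC library (columns, hom, het and WT replicates), as log2 of CPM plus 0.1 minus the gene's mean over the 9 libraries (colour, red above and blue below the mean). Most of the called neutrophil, mast cell and erythroid members are red in hom, with Padi4 and Car2 among the exceptions, most of the called stress and amino acid members are blue in het, with Xbp1 as an exception, and most dendritic cell members are red in het, such as Ccr7 with means of 4.55 CPM in hom, 15.5 CPM in het and 8.35 CPM in WT.

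Erythroid genes were higher in hom in 8 of 18 tested, with 1 lower and a median change of 0.60. The number higher was 5 without hom replicate 2 or 3 or het replicate 1, and 4 without het replicate 2. Aqp1, the water channel of red cells, had 27.2, 38.0 and 34.3 CPM in hom, 15.3, 18.2 and 21.4 CPM in het and 19.2, 17.4 and 21.6 CPM in WT libraries. Aqp1 changed by 0.85 ± 0.13 on the log2 scale (SE, edgeR adjusted p = 0.001). The hom libraries were highest. Gata1, the erythroid and megakaryocytic master factor, averaged 17.5 ± 4.85 CPM in hom, 8.16 ± 1.99 CPM in het and 17.6 ± 3.40 CPM in WT (log2 fold change 1.09 ± 0.24, edgeR adjusted p = 0.021), so that hom and WT lay together and het lay below. Without hom replicate 3 Gata1 was not called (adjusted p = 0.0914). Cpox, an enzyme of haem synthesis, averaged 56.7 ± 5.35 CPM in hom, 40.9 ± 2.36 CPM in het and 51.8 ± 6.04 CPM in WT, a change of 0.47 ± 0.09 (log2, SE; edgeR adjusted p = 0.00233). Car2, a carbonic anhydrase, was the lower member (log2 fold change -0.31 ± 0.06, edgeR adjusted p = 0.00364). The globin gene Hbb-bt was not called (log2 fold change -0.19 ± 0.11, edgeR adjusted p = 0.339), and Alas2 averaged 0.557 CPM in hom, 0.502 CPM in het and 0.485 CPM in WT libraries.

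Of 25 tested megakaryocyte and platelet genes 4 were higher and 2 lower, with a median change of 0.56. This count moved with single libraries: 11 were higher without hom replicate 1, 7 without het replicate 2, and 2 were higher without hom replicate 2 or het replicate 3. Gp5, a part of the platelet receptor for von Willebrand factor, had 8.04, 14.3 and 10.9 CPM in hom, 3.72, 5.65 and 5.21 CPM in het and 13.4, 13.3 and 15.1 CPM in WT libraries. Gp5 changed by 1.18 ± 0.19 on the log2 scale (SE, edgeR adjusted p = 0.00107). Gp9, another part of it, averaged 8.34 ± 2.28 CPM in hom, 4.56 ± 0.845 CPM in het and 9.24 ± 1.48 CPM in WT, a change of 0.86 ± 0.19 (log2, SE; edgeR adjusted p = 0.00988). In both the het libraries were below all hom and WT libraries. Mmrn1, which encodes the platelet protein multimerin, averaged 11.1 ± 1.84 CPM in hom, 5.08 ± 0.576 CPM in het and 7.76 ± 1.69 CPM in WT, a change of 1.12 ± 0.17 (log2, SE; edgeR adjusted p = 3.87e-04). Selp, the adhesion receptor P-selectin, was lower (56.6 ± 5.52 CPM in hom, 83.6 ± 9.68 CPM in het and 70.8 ± 1.43 CPM in WT; log2 fold change -0.56 ± 0.08, edgeR adjusted p = 3.08e-04), with 13% of its exon length shared with a neighbouring gene. Vwf and Pf4 were not called (log2 fold change 1.39 ± 0.69, edgeR adjusted p = 0.286, and log2 fold change 0.56 ± 0.16, edgeR adjusted p = 0.0575).

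Of 29 tested HSC transcription factors 7 were lower (24.1%, against 5.77% of all genes) and 1 higher (3.45%, against 3.63%). Their median change was -0.14, and 4 were lower without hom replicate 2 or het replicate 2. Mycn, a MYC family factor, had 87.9, 91.4 and 90.3 CPM in hom, 125, 121 and 121 CPM in het and 151, 154 and 156 CPM in WT libraries. Mycn changed by -0.44 ± 0.05 on the log2 scale (SE, edgeR adjusted p = 6.14e-05). The 3 genotypes of Mycn were graded without overlap. Mecom, which encodes the stem cell factor EVI1, had 33.8, 31.2 and 32.3 CPM in hom, 49.3, 45.5 and 47.1 CPM in het and 42.7, 49.6 and 46.7 CPM in WT libraries. Mecom changed by -0.55 ± 0.07 on the log2 scale (SE, edgeR adjusted p = 1.27e-04). It was low in hom, and het and WT overlapped. Klf12 averaged 6.66 ± 0.771 CPM in hom, 12.8 ± 0.996 CPM in het and 11.7 ± 1.17 CPM in WT, a change of -0.93 ± 0.12 (log2, SE; edgeR adjusted p = 1.17e-04). Hlf, a regulator of stem cell quiescence, averaged 102 ± 7.59 CPM in hom, 126 ± 11.1 CPM in het and 72.6 ± 3.48 CPM in WT, a change of -0.31 ± 0.07 (log2, SE; edgeR adjusted p = 0.00969). Hmga2, a chromatin protein of fetal stem cells, was the higher one, at 73.6 ± 4.59 CPM in hom, 59.5 ± 4.66 CPM in het and 36.3 ± 1.46 CPM in WT, a change of 0.31 ± 0.07 (log2, SE; edgeR adjusted p = 0.0102). Hlf was not called without hom replicate 2 or het replicate 1 (adjusted p = 0.0585 and 0.0528), nor Hmga2 without het replicate 2 (adjusted p = 0.0626). Meis1, Gata2, Tal1, Erg and Fli1 were not called, with changes between -0.14 and 0.09.

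Of 28 tested HSC surface and endothelial-type genes 6 were lower and 2 higher, with a median change of -0.13, and 1 was higher without hom replicate 2 or 3 or het replicate 2. Tie1, an endothelial receptor kinase, had 61.8, 65.8 and 59.4 CPM in hom, 76.3, 85.9 and 81.1 CPM in het and 93.6, 99.4 and 97.8 CPM in WT libraries. Tie1 changed by -0.38 ± 0.06 on the log2 scale (SE, edgeR adjusted p = 9.07e-04). Tie1 was again graded over the genotypes. Fgd5, a marker of long-term stem cells, averaged 3.99 ± 0.331 CPM in hom, 7.63 ± 0.523 CPM in het and 7.11 ± 0.894 CPM in WT, a change of -0.93 ± 0.15 (log2, SE; edgeR adjusted p = 5.06e-04). Robo4, a guidance receptor, averaged 4.18 ± 0.443 CPM in hom, 7.20 ± 0.537 CPM in het and 3.56 ± 0.326 CPM in WT, a change of -0.78 ± 0.15 (log2, SE; edgeR adjusted p = 0.003). Slamf1, which encodes CD150, a marker the gate selects against, was higher, at 4.47, 7.62 and 6.55 CPM in hom, 3.00, 3.90 and 3.12 CPM in het and 9.09, 8.82 and 12.01 CPM in WT libraries. Slamf1 changed by 0.90 ± 0.20 on the log2 scale (SE, edgeR adjusted p = 0.00819). Het was lowest and WT highest.

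Of 33 tested cytokine receptors 10 were lower and 2 higher, with a median change of -0.13. Il10ra, a chain of the receptor for the inhibitory cytokine interleukin-10, had 173, 157 and 156 CPM in hom, 232, 234 and 229 CPM in het and 139, 141 and 145 CPM in WT libraries. Il10ra changed by -0.52 ± 0.06 on the log2 scale (SE, edgeR adjusted p = 2.84e-05). Il1r1, the receptor for interleukin-1, averaged 87.7 ± 5.84 CPM in hom, 122 ± 2.58 CPM in het and 97.8 ± 1.64 CPM in WT, a change of -0.48 ± 0.06 (log2, SE; edgeR adjusted p = 7.40e-05). Il4ra, the interleukin-4 receptor, was lower as well (77.5 ± 5.43 CPM in hom, 104 ± 3.54 CPM in het and 88.6 ± 3.53 CPM in WT; log2 fold change -0.42 ± 0.06, edgeR adjusted p = 3.49e-04). In all 3 the het mean was the highest. Csf3r, Il6ra, Il3ra and Csf2rb were not called. Of 22 tested STAT5 feedback and survival genes 5 were lower and 1 higher. The number lower was 2 without hom replicate 2 or 3 and 3 without hom replicate 1 or het replicate 1 or 3, and 0 were higher without hom replicate 2 or het replicate 1 or 3. Pim2, a survival kinase, had 155, 197 and 143 CPM in hom, 234, 260.2 and 257 CPM in het and 291, 262 and 272 CPM in WT libraries. Pim2 changed by -0.60 ± 0.10 on the log2 scale (SE, edgeR adjusted p = 0.00121). Cish, a feedback inhibitor, averaged 39.4 ± 3.44 CPM in hom, 50.7 ± 2.10 CPM in het and 39.6 ± 3.27 CPM in WT (log2 fold change -0.36 ± 0.08, edgeR adjusted p = 0.00702).

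Integrin and chemokine genes were lower in part. Of 31 tested integrin and adhesion genes 7 were lower and 2 higher, and 7 were lower in each of the 6 fits with 1 hom or het library left out. Itgb7, the chain that pairs with alpha 4 for homing to the gut, had 72.5, 69.5 and 65.6 CPM in hom, 101, 104 and 96.1 CPM in het and 67.7, 72.7 and 70.4 CPM in WT libraries. Itgb7 changed by -0.54 ± 0.06 on the log2 scale (SE, edgeR adjusted p = 3.15e-05). Itgb5 averaged 28.1 ± 1.02 CPM in hom, 38.8 ± 2.52 CPM in het and 21.9 ± 0.582 CPM in WT, a change of -0.47 ± 0.08 (log2, SE; edgeR adjusted p = 6.27e-04). Vcam1, a ligand of alpha 4 integrins, was higher, at 1.52 ± 0.284 CPM in hom, 0.384 ± 0.0797 CPM in het and 0.577 ± 0.306 CPM in WT, a change of 1.99 ± 0.41 (log2, SE; edgeR adjusted p = 0.00485). Its het and WT levels were near the floor, which makes the size of this change uncertain. Itgal, Itgb1 and Itgb2 were not called (changes of 0.12, 0.06 and 0.06). Of 21 tested chemokines and receptors 6 were lower and 0 higher, where 2 were higher at an unadjusted p under 0.05, 1 by DESeq2 and 1 without hom replicate 1 or 2. The 6 lower ones included Ccr7 and Ccl22, also counted among the dendritic cell genes, and Ccl9 and Ccl3, also counted among the monocyte genes. Ccl3 averaged 21.5 ± 1.53 CPM in hom, 30.8 ± 2.31 CPM in het and 14.6 ± 0.285 CPM in WT. Cxcr4, which holds progenitors in the marrow, was not called (log2 fold change -0.01 ± 0.07, edgeR adjusted p = 0.946).

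Of 35 tested interferon-response genes 5 were lower and 1 higher, with a median change of -0.14, and the number lower ran from 2 without hom replicate 3 to 12 without hom replicate 1, and was 3 without hom replicate 2 or het replicate 2 or 3. Stat2, a core factor of the type I response, averaged 102 ± 5.78 CPM in hom, 124 ± 4.14 CPM in het and 99.6 ± 2.66 CPM in WT, a change of -0.28 ± 0.06 (log2, SE; edgeR adjusted p = 0.00531). Mx2, an antiviral GTPase, was higher (34.0 ± 0.303 CPM in hom, 24.0 ± 1.74 CPM in het and 22.1 ± 1.32 CPM in WT; log2 fold change 0.50 ± 0.08, edgeR adjusted p = 5.16e-04). H2-K1, a class I antigen-presenting gene, was lower at 1712 ± 149.7 CPM in hom, 2191 ± 77.0 CPM in het and 1841 ± 60.7 CPM in WT (log2 fold change -0.36 ± 0.07, edgeR adjusted p = 0.00394), with an uncertain level because of an alternative contig.

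Of 27 tested genes of the integrated stress response and of serine, one-carbon and amino acid metabolism 11 were higher and 1 lower, with a median change of 0.35, and 10 to 12 were higher with 1 hom or het library left out. Psat1, an enzyme of serine synthesis, had 307, 362 and 335 CPM in hom, 201, 228 and 235 CPM in het and 409, 415 and 431 CPM in WT libraries. Psat1 changed by 0.59 ± 0.07 on the log2 scale (SE, edgeR adjusted p = 4.99e-05). Shmt2, which moves a carbon unit from serine in mitochondria, had 212, 241 and 219.9 CPM in hom, 158, 165 and 158 CPM in het and 261, 266 and 274 CPM in WT libraries. Shmt2 changed by 0.48 ± 0.06 on the log2 scale (SE, edgeR adjusted p = 7.40e-05). Mthfd2, the next enzyme in that route, averaged 114 ± 18.3 CPM in hom, 62.7 ± 6.05 CPM in het and 153 ± 6.33 CPM in WT, a change of 0.86 ± 0.10 (log2, SE; edgeR adjusted p = 1.20e-04). In all 3 the het libraries were lowest and the WT libraries highest, without overlap.

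The means of further members stood in the same order. Asns, the asparagine synthetase gene, averaged 127 ± 19.7 CPM in hom, 71.6 ± 9.53 CPM in het and 171 ± 19.8 CPM in WT, a change of 0.82 ± 0.13 (log2, SE; edgeR adjusted p = 0.0044). Chac1, which breaks down glutathione, had 10.5, 13.3 and 10.6 CPM in hom, 5.34, 6.53 and 6.24 CPM in het and 15.9, 19.5 and 18.6 CPM in WT libraries. Chac1 changed by 0.92 ± 0.13 on the log2 scale (SE, edgeR adjusted p = 2.25e-04). Slc7a5, which carries large neutral amino acids into cells, averaged 218 ± 33.6 CPM in hom, 136 ± 14.2 CPM in het and 299 ± 21.4 CPM in WT, a change of 0.68 ± 0.10 (log2, SE; edgeR adjusted p = 9.02e-04). Its partner chain Slc3a2 averaged 169 ± 22.7 CPM in hom, 122 ± 6.70 CPM in het and 218 ± 18.3 CPM in WT, a change of 0.47 ± 0.09 (log2, SE; edgeR adjusted p = 0.00298). Nupr1, a stress-induced chromatin protein, averaged 7.91 ± 2.07 CPM in hom, 3.65 ± 0.594 CPM in het and 14.3 ± 3.81 CPM in WT (log2 fold change 1.12 ± 0.25, edgeR adjusted p = 0.013), and its call was lost without hom replicate 3 or het replicate 1 or 3 (adjusted p-values up to 0.0676). Aldh1l2, a mitochondrial folate enzyme, averaged 23.1 ± 5.49 CPM in hom, 8.31 ± 1.20 CPM in het and 27.1 ± 8.52 CPM in WT (log2 fold change 1.47 ± 0.30, edgeR adjusted p = 0.0237), and with 1 library left out only the fit without hom replicate 1 called it. The chaperone genes Hspa5 and Hsp90b1 were not called (changes of -0.02 and 0.08). Xbp1, a factor of the unfolded protein response, was the lower member (log2 fold change -0.21 ± 0.06, edgeR adjusted p = 0.0257), called with a library left out only without het replicate 1. Atf4, the central factor of this response, was listed at 0 in every library.

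Of 30 tested G2 and mitosis genes 9 were higher and 0 lower, with 0 lower at an unadjusted p under 0.05 and by DESeq2, and the median change was 0.19. The count ran from 1 without het replicate 1 to 10 without het replicate 3, and it was 3 without hom replicate 3 or het replicate 2. Mki67, the proliferation marker Ki-67, had 709, 785 and 767 CPM in hom, 577, 659 and 581 CPM in het and 739.9, 724 and 826 CPM in WT libraries. Mki67 changed by 0.32 ± 0.07 on the log2 scale (SE, edgeR adjusted p = 0.00959). Its adjusted p was 0.0506 without het replicate 1. Cenpf, a kinetochore protein, averaged 108 ± 7.66 CPM in hom, 89.8 ± 1.72 CPM in het and 109 ± 3.09 CPM in WT, a change of 0.27 ± 0.06 (log2, SE; edgeR adjusted p = 0.01). Of 29 tested S phase genes 4 were higher and 0 lower, with 0 lower at an unadjusted p under 0.05 and by DESeq2, and 2 were higher without hom replicate 1 or het replicate 1, and 1 without het replicate 2. Pola1, a subunit of the polymerase that primes replication, averaged 208 ± 4.96 CPM in hom, 172 ± 8.74 CPM in het and 204 ± 9.15 CPM in WT, a change of 0.27 ± 0.06 (log2, SE; edgeR adjusted p = 0.0067). The median S phase change was 0.13, and the replicative helicase genes Mcm2 to Mcm7 were not called, with changes of -0.01 to 0.14. Of 30 MYC and ribosome biogenesis genes 5 were higher (16.7%, against 3.63% of all genes) and 3 lower (10%, against 5.77%). With a library left out 1 was higher in each fit, except the one without het replicate 3. Nop58, a nucleolar protein that guides RNA modification, averaged 274 ± 4.46 CPM in hom, 219 ± 16.1 CPM in het and 292 ± 8.55 CPM in WT (log2 fold change 0.32 ± 0.06, edgeR adjusted p = 0.00257).

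Among 22 tested myeloid transcription factors 6 were lower and 1 higher, and the number lower was 1 without het replicate 2 and 3 without hom replicate 3 or het replicate 3. Irf8, which directs monocyte and dendritic cell fate, had 110.2, 92.5 and 99.8 CPM in hom, 132, 135 and 126 CPM in het and 56.6, 69.9 and 57.7 CPM in WT libraries. Irf8 changed by -0.38 ± 0.08 on the log2 scale (SE, edgeR adjusted p = 0.00478). Its het libraries were highest and its WT libraries lowest. Of 24 immediate early genes 4 were lower and 0 higher (0 higher at an unadjusted p under 0.05 and by DESeq2), whereas without het replicate 1 there were 4 lower and 3 higher. Dusp5, a phosphatase of the ERK pathway, averaged 31.0 ± 1.22 CPM in hom, 43.3 ± 1.79 CPM in het and 32.1 ± 1.88 CPM in WT, a change of -0.48 ± 0.07 (log2, SE; edgeR adjusted p = 3.75e-04). Of 22 cell cycle inhibitors and G1 genes 3 were lower (13.6%, against 5.77% of all genes) and 1 higher (4.5%, against 3.63%). The number lower was 1 without hom replicate 2 or het replicate 2, and 0 were higher without hom replicate 1 or het replicate 2. Rbl2, a relative of the retinoblastoma protein and a called member of this list, was not called in any of the 6 fits with a library left out. Ccnd1, the cyclin D1 gene, averaged 7.82 ± 0.820 CPM in hom, 11.6 ± 2.21 CPM in het and 16.7 ± 1.09 CPM in WT (log2 fold change -0.57 ± 0.13, edgeR adjusted p = 0.0122), with 22% of its exon length shared with a neighbour, and its call was lost without hom replicate 3 (adjusted p = 0.0585) or het replicate 2 (adjusted p = 0.0903).

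The remaining higher genes with large changes belonged to none of these lists. Nt5e, the surface enzyme CD73 that makes adenosine, had 7.56, 15.1 and 11.1 CPM in hom, 4.44, 5.43 and 4.00 CPM in het and 8.40, 6.72 and 11.01 CPM in WT libraries. Nt5e changed by 1.29 ± 0.26 on the log2 scale (SE, edgeR adjusted p = 0.00855). Plcb1, a phospholipase that relays signals from G-protein-coupled receptors, averaged 5.24 ± 1.36 CPM in hom, 2.41 ± 0.662 CPM in het and 4.86 ± 0.926 CPM in WT, a change of 1.13 ± 0.24 (log2, SE; edgeR adjusted p = 0.00535). In both every het library lay below every hom and every WT library.

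The most abundant called genes changed by small amounts. Ncl, which encodes the nucleolar protein nucleolin, averaged 2599.9 ± 124 CPM in hom, 2201 ± 138 CPM in het and 2487 ± 188 CPM in WT (log2 fold change 0.24 ± 0.07, edgeR adjusted p = 0.0482), and with a hom or het library left out only the fit without het replicate 3 called it. CYTB, the cytochrome b gene of the mitochondrial genome, averaged 2458 ± 154 CPM in hom, 1796 ± 166 CPM in het and 2184 ± 364 CPM in WT (log2 fold change 0.45 ± 0.11, edgeR adjusted p = 0.0144), with its call lost without het replicate 2 (adjusted p = 0.0704). Mitochondrial genes held 1.76% to 2.59% of the counts over the 9 libraries. Aldoa, an aldolase of glycolysis, averaged 1498 ± 95.3 CPM in hom, 1778 ± 147 CPM in het and 1603 ± 60.1 CPM in WT (log2 fold change -0.25 ± 0.07, edgeR adjusted p = 0.0401), and only the fit without het replicate 1 among the 6 called it.

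Of 31 tested cholesterol synthesis genes 1 was lower (3.23%, against 5.77% of all genes) and 0 higher, with 0 higher at an unadjusted p under 0.05 and by DESeq2. Their median change was -0.15, and 4 of the 31 changes were positive. At an unadjusted p under 0.05 8 were lower, against 1824 of all 13855 genes, and 3 were lower by DESeq2. The number lower was 0 without hom replicate 1 or 3 or het replicate 2, and 2 without hom replicate 2 or het replicate 1. Of 24 glycolysis and hypoxia genes 3 were lower (12.5%) and 0 higher (0 higher at an unadjusted p under 0.05 and by DESeq2, and 1 higher without hom replicate 1). Aldoc, an aldolase gene, had the lowest p (189.9 ± 6.83 CPM in hom, 269 ± 14.1 CPM in het and 210.4 ± 14.9 CPM in WT; log2 fold change -0.50 ± 0.06, edgeR adjusted p = 8.59e-05). Of 24 Toll-like receptor genes and adaptors 2 were lower (8.33%) and 1 higher (4.17%, against 3.63% of all genes). Tlr4, the receptor for bacterial lipopolysaccharide, was the higher one (35.3 ± 2.38 CPM in hom, 26.7 ± 1.13 CPM in het and 36.2 ± 3.54 CPM in WT; log2 fold change 0.41 ± 0.09, edgeR adjusted p = 0.00535). The lower ones, Tlr9 and Unc93b1, lost their calls without hom replicate 3 (adjusted p = 0.053 and 0.158) and without het replicate 2 (adjusted p = 0.0752 and 0.183), and Unc93b1 also without hom replicate 2 or het replicate 3 (adjusted p = 0.0515 and 0.0613).

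The targets by which RUNX2 is known in bone were mostly too low to test. Of 26 genes 16 were too low to test, among them Bglap, Ibsp, Sp7 and Alpl. Of the 10 tested 1 was lower (10%, against 5.77% of all genes) and 0 higher. At an unadjusted p under 0.05 and by DESeq2 0 were higher. The lower gene was Serpinh1, a collagen chaperone, at 0.585, 0.243 and 0.0471 CPM in hom, 1.38, 0.878 and 0.974 CPM in het and 1.97, 2.80 and 2.27 CPM in WT libraries. Serpinh1 changed by -1.90 ± 0.49 on the log2 scale (SE, edgeR adjusted p = 0.0205). Hom replicate 3 was under the floor, the order followed that of Runx2, and the call was lost without hom replicate 2 or 3 or het replicate 1 (adjusted p = 0.0653, 0.0741 and 0.0714). Of 17 stromal and endothelial markers 11 were too low to test, including Cxcl12, Lepr and Col1a1, and of the 6 tested Vcam1 was higher and Pdgfrb lower, the second not called without het replicate 2.

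Whether a het level sat midway between hom and WT was tested across all genes by the contrast of het with the mean of hom and WT on the log2 scale. The het level departed from that midpoint in 2074 genes (15.0%), above it in 1249 (9.01%) and below it in 825 (5.95%). Of the 1249 above, the het mean exceeded both other means in 1190, and of the 825 below it was under both in 812. Among all 13855 genes tested the het mean lay between the others in 4115, above both in 4776 and below both in 4964. Where hom and WT are alike, a departure from their midpoint puts het outside both by itself. The count was 1326 without het replicate 1 and 1239 without het replicate 2. This contrast shares its libraries with the comparison of hom and het, so the overlap of the calls is not given.

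The genes with the smallest p above the midpoint, besides Runx2, were Dntt, Wfdc17 and Emp1. Wfdc17, which encodes a secreted protein of activated macrophages, had 30.3, 29.6 and 26.8 CPM in hom, 51.3, 48.5 and 56.9 CPM in het and 17.4, 16.9 and 14.1 CPM in WT libraries. It stood 1.28 ± 0.07 on the log2 scale (edgeR adjusted p = 7.73e-09) against the midpoint. Emp1, an epithelial membrane protein gene, had 14.9, 13.2 and 11.3 CPM in hom, 31.0, 30.4 and 33.2 CPM in het and 9.87, 11.3 and 10.8 CPM in WT libraries. It stood 1.42 ± 0.08 on the log2 scale (edgeR adjusted p = 7.73e-09) against it. Dntt was 1.43 ± 0.10 on the log2 scale (edgeR adjusted p = 4.91e-08) against it. In all 3 the het libraries were the highest of the 9. Runx2 stood 0.94 ± 0.05 on the log2 scale (edgeR adjusted p = 7.73e-09) against the midpoint, with its het level near WT.

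Below the midpoint the smallest p belonged to Psat1, Shmt2, Chac1 and Gars, a glycyl-tRNA synthetase gene. Psat1 was -0.76 ± 0.06 on the log2 scale (edgeR adjusted p = 6.50e-07) against it, and Chac1 was -1.25 ± 0.12 on the log2 scale (edgeR adjusted p = 1.83e-06). Gars had 239, 258 and 251 CPM in hom, 161, 184 and 190.1 CPM in het and 294, 293 and 301 CPM in WT libraries. Gars stood -0.61 ± 0.06 on the log2 scale (edgeR adjusted p = 1.83e-06) against the midpoint. The het libraries were lowest and the WT libraries highest in each of the 4. Mycn and Tie1, graded over the genotypes, did not depart from the midpoint (0.06 ± 0.05 on the log2 scale (edgeR adjusted p = 0.475), and 0.06 ± 0.05 on the log2 scale (edgeR adjusted p = 0.511)). Il18r1 and Tox, graded as well, stood above it. Il18r1 was 0.51 ± 0.14 on the log2 scale (edgeR adjusted p = 0.0164) and Tox 0.37 ± 0.11 (edgeR adjusted p = 0.0237) against it.

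Promoter sequences were compared with the core letters that RUNX proteins bind, TGTGGT or TGCGGT on either strand, in RefSeq windows from 250 bases before to 50 after a gene's start (GRCm38.p6). Of the tested genes 10696 matched a window by symbol. The letters stood in 21.5% of the windows of genes called higher (87 of 405), in 22.8% of those called lower (147 of 644) and in 21.8% of all genes tested (2327 of 10696). The shares of called genes were thus near that of all genes. The 150 bases before the start are printed for 4 called genes that hold the letters within 100 bases of it, from a neutrophil, a mast cell, a lymphoid priming gene and Runx2 itself, with the letters or their reverse complement in capitals.
S100a9 (chr3:90695722-90695871, minus strand): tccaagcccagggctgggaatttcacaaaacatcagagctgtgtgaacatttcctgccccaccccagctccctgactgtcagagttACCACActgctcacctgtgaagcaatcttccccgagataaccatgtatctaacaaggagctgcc
Cpa3 (chr3:20242182-20242331, minus strand): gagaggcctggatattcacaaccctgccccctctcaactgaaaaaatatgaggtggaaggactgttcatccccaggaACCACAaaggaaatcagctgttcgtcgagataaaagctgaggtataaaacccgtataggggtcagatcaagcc
Flt3 (chr5:147400490-147400639, minus strand): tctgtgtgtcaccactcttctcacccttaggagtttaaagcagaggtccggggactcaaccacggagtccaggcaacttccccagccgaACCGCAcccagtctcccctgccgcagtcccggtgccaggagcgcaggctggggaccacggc
Runx2 (chr17:44814628-44814777, minus strand): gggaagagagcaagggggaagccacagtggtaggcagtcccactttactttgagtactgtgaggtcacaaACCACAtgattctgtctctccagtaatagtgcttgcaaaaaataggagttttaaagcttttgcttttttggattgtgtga
The letters begin at position -64 from the start in S100a9, -73 in Cpa3, -61 in Flt3 and -80 in Runx2, each as the reverse complement. Among the named genes, Ctsg, Stat2 and Trat1 were also called and hold the letters within 100 bases of the start, but are not printed. A match describes letters and not a bound site, and 21 of the 95 genes named here that have a window held one.

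Genes around the deleted locus were read separately. Of 90 tested genes that start within 5 Mb of Runx2 on chromosome 17, 1 was higher and 5 lower (6.67% called, against 9.40% of all genes). The lower genes were Enpp5, Cul9, Ptk7, Cul7 and Pex6, with changes from -0.46 to -0.29, and the higher gene was Trem3, a myeloid receptor gene near the floor (1.95 CPM in hom, 0.598 CPM in het and 0.935 CPM in WT libraries; log2 fold change 1.70 ± 0.36, edgeR adjusted p = 0.0054). These 6 neighbours were named after their values were seen. The number called was 2 without hom replicate 3 or het replicate 2.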

How the data were processed

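Polyadenylated RNA of 9 HPC libraries (3 hom, 3 het, 3 WT) was read from a deposited table of counts per gene. The tools named in the submitters' processing notes are Trim Galore 0.6.10 and FastQC for the reads, STAR 2.7.11a for alignment and featureCounts 2.0.6 for counting. Per the file headers, read pairs were counted over exons of a RefSeq annotation of mm10 without regard to strand, whereas the notes name mm39; coordinates given here are those of the file and the promoter windows are GRCm38.p6. Reads from overlapping and antisense genes cannot be told apart in unstranded counts, and 24778 genes were at 0 in all 9 libraries.

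Counts were analysed with edgeR 4.0.16 (limma 3.58.1, R 4.3.3): TMM factors, filterByExpr on the genotypes, 1 model of the 9 libraries, robust quasi-likelihood F tests and Benjamini-Hochberg adjustment over 13855 genes, with calls at 0.05. Replicates of a genotype differed by more than sampling noise (chi-square per degree of freedom 4.60 to 10.3), so none was counted as a duplicate. The floor of 3 counts covers counting error only. The pipeline was tested on simulated counts. Alternatives were DESeq2 1.42.0, RLE size factors, other filters, a replicate block, the 6 mutant libraries alone and leaving out each library. Plots used matplotlib.

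The 121 named genes were the RUNX factors and Cbfb, the 12 higher and 12 lower genes of largest change (no overlap of the groups, a mean of at least 5 CPM in the higher one), up to 4 called members of each of 30 lists by p, the gate markers, the 4 genes above and 4 below the midpoint with the smallest p, and the most abundant called genes. Of these, 4 are not reported here. List members outside this rule are named as examples chosen after their values were seen. The members and lists were chosen with earlier results of these data known. Leaving out a library was run for hom and het in all results and for WT in the midpoint contrast.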

Additional observations from a re-analysis of the deposited data

Results flagged for a closer look

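In 1 fit of all 18 RNA libraries, added after the data were seen, the hom minus het change was compared between HPC and cultured HSC (CD201+ CD150+ cells of the same study). The difference was called by the edgeR test in 81 of 15431 genes, more positive in HPC in 31 and more negative in 50. Among them were 12 of the named genes. Most named genes were chosen for their hom against het change in HPC. That change is a part of this difference, so the choice itself favours their presence. Runx2 itself differed by -0.44, with a change of -2.14 in HPC and -1.69 in HSC. The other more negative named genes were Nr4a3 (-2.38), Cd83 (-1.39), Emp1 (-1.31), Itgb7 (-0.75), Satb1 (-0.71), H2-Ob (-0.71), Flt3 (-0.66) and Stat2 (-0.57). The more positive ones were Aqp1 (1.32), Slamf1 (1.07) and Mmrn1 (1.02). Fitted on the HSC libraries alone, the hom against het test called 2 of 14959 genes. The spread between replicates over all genes (edgeR common dispersion) was 0.0128 in HSC and 0.00483 in HPC. A change not called in HSC is therefore not shown to be absent.

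Emp1 had the smallest adjusted p of the difference, 0.0024, with changes of -1.27 ± 0.10 in HPC and 0.06 ± 0.14 in HSC (SE). Flt3 changed by -0.52 ± 0.08 in HPC and by 0.15 ± 0.08 in HSC, and Aqp1 by 0.85 ± 0.13 in HPC and by -0.45 ± 0.22 in HSC. HPC and HSC libraries also differed in sex-linked RNA: Xist had 52393 to 94240 counts and Ddx3y 0 in the HPC libraries, against 0 to 24 and 2181 to 3831 counts in the HSC libraries. Cell type and the sex of the donor cells therefore cannot be told apart in these differences.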

How the results depend on the processing

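The count of genes called between hom and het was 1303, and it was 1356 with DESeq2, 1295 with RLE size factors, 1676 with no filter, 1316 with a filter of 1 CPM in 3 libraries and 1145 with the 6 mutant libraries alone. Leaving out 1 library gave 701 to 1179, the lowest without het replicate 2. For the midpoint contrast leaving out 1 library gave 1239 to 2027, for the neighbours of Runx2 2 to 8, and for distinct list genes 116 to 161 against 165. Runx3, never called, ran from -0.16 without hom replicate 2 to 0.012 without hom replicate 3, and was 0.00 without het replicate 2. No other named gene changed sign under these alternatives. Of 115 named genes called besides Runx2, 85 were called in all 6 fits that left out a hom or het library, 30 lost the call in at least 1 and 15 in 3 or more. The cause of these shifts was not tested beyond the smaller number of libraries. With the replicate number as a block 1463 genes were called between hom and het and 2183 in the midpoint contrast. Same-numbered libraries correlated at -0.11 to 0.23, and not every library correlated best with its own number. With 3 libraries per genotype these correlations cannot decide whether same-numbered libraries shared a batch or culture, and the labels do not say. The tested genes needed enough counts in 3 libraries, and genes at or near the floor of 0.135 to 0.180 CPM are not resolved at this depth.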
